A study of Canis lupus familiaris with 29 samples.

Results

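The neuropeptide genes CARTPT, CRH, UCN and OXT, 4 of the 30951 genes in the count table, were low in canine tumors of chromaffin cells and are described here. They were selected on the measured contrast itself, because their counts were lower in tumors than in normal adrenal medulla (NAM), so that contrast is given for them as a description with no test. The study sequenced mRNA of pheochromocytomas and paragangliomas (PPGLs), tumors of the catecholamine-producing chromaffin cells, from client-owned dogs of several clinics, and of NAMs from healthy dogs kept for research. There were 29 samples: 10 NAMs, 7 PPGLs that the authors put into group 1, and 12 that they put into group 2. The authors drew the groups from a principal component plot of the same samples, after leaving out outlying tumors. The labels give no breed, age or treatment, and the tissue source (research dogs or patients) and the diagnosis cannot be told apart.

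CARTPT encodes the precursor of the CART peptides, which restrain food intake and take part in stress responses. CRH starts the hormonal stress response by releasing corticotropin from the pituitary, UCN encodes urocortin, a relative of CRH that acts on the same receptor family, and OXT encodes oxytocin, known for birth, milk ejection and social behavior. All are made as precursors that are cut and stored in secretory granules, and chromaffin cells store many such peptides beside catecholamines.

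Totals per sample ran from 19258054 to 35918182 counts in NAMs and from 18208718 to 31919833 in PPGLs. Levels are counts scaled to library size (CPM) after TMM normalization, which scales libraries to each other. The floor was set at 3 counts per library, or 0.0779 to 0.164 CPM for the NAM libraries and 0.0895 to 0.175 CPM for the tumor libraries; it covers counting error only.

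Some libraries stood apart in their chromaffin markers. In group 1, replicates 3 and 5 had 10.8 and 2.15 CPM of TH, the first enzyme of catecholamine synthesis, whereas NAMs had at least 1057 CPM. Replicate 7 of group 1 kept TH (1382 CPM) but had 27.1 CPM of the granule protein CHGB, against at least 5687 CPM in NAMs. In group 2, TH was 32.3 CPM in replicate 7 and the monoamine transporter SLC18A1 was 4.24 CPM in replicate 11. Fold changes and counts of called genes that rest on the 3 tumors of group 1 are given with and without them, a choice made after the values were seen. Relations within group 1 were not computed without them, since 4 tumors would remain.

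CARTPT was one of the most abundant transcripts of the normal medulla and fell to a small share of that level in each tumor. In NAMs it ranged from 2073 to 4914 CPM with a median of 2976, or 0.186% to 0.455% of all counts. In group 1 it ranged from 0.179 to 277 CPM with a median of 0.638, and in group 2 from 1.25 to 216 CPM with a median of 30.0. All 19 PPGLs lay below every NAM, a pattern that 0.481% of the 14766 genes tested between the tissues showed and from which nothing is read, since the contrast chose the gene. The log2 fold change (FC) of PPGLs against NAMs was -5.83 (SE 0.85), and -5.59 without the 3 tumors of group 1.

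Within group 1, CARTPT fell into separate ranges. Replicates 2, 4 and 6 held 277, 76.3 and 116 CPM, and replicates 1, 3, 5 and 7 held 0.438, 0.381, 0.179 and 0.638 CPM. The low tumors included the 3 that stood apart in their markers, but replicate 1 had 863 CPM of TH. Replicate 2, the tumor with the highest CARTPT level, also had the highest tumor level of PNMT, the adrenaline-forming enzyme, at 5827 CPM. Group 2 showed no such gap, with levels spread between replicate 8 at 1.25 CPM and replicate 2 at 216 CPM.

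CRH was a gene of low level in the normal medulla and lower still in the tumors. It ranged from 6.33 to 40.9 CPM in NAMs with a median of 11.7, from 0.745 to 2.28 CPM in group 1 with a median of 0.894, and from 0.159 to 3.14 CPM in group 2 with a median of 1.29. Here too all 19 PPGLs lay below every NAM. NAM replicates 3 and 8 were high, at 38.6 and 40.9 CPM, while the next NAM had 15.2 CPM. Counts in tumors were 17 to 69 except in group 2 replicate 11, which had 3, so most tumors kept a level above the floor. The log2 FC against NAMs was -3.69 (SE 0.33), and -3.61 without the 3 tumors.

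UCN varied more between NAMs than any other of the 4 genes. It ranged from 0.164 to 48.4 CPM with a median of 2.89; replicates 3, 8 and 6 held 48.4, 29.9 and 18.0 CPM, and replicate 9 was at the floor with 3 counts. In group 1 it ranged from 0 to 1.61 CPM with a median of 0.0471, and in group 2 from 0 to 5.64 CPM with a median of 0.0195. Of the 19 PPGLs, 14 were at or under the floor. The tumors above it were group 2 replicates 12, 4, 1 and 10, at 5.64, 2.28, 0.844 and 0.505 CPM, and group 1 replicate 7, at 1.61 CPM. The tissues overlapped, with 13 PPGLs below every NAM. The log2 FC against NAMs was -4.22 (SE 0.98), and -4.19 without the 3 tumors. It depended more on other choices, with -5.09 without group 2 replicate 12, -3.54 without NAM replicate 3, -3.18 with the cortical marker score as a covariate and -6.21 as a ratio of medians.

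OXT was detected in NAMs and in 1 tumor. It ranged from 0.130 to 16.2 CPM in NAMs with a median of 5.78; replicates 7, 1 and 9 held 16.2, 15.8 and 13.6 CPM, and replicate 4 had 5 counts. In group 1 it was at most 1 count in all tumors but replicate 7, which had 124 counts (4.16 CPM), a level inside the range of NAMs. In group 2 it was at most 3 counts, with a highest value of 0.159 CPM in replicate 11. Against the mean of NAMs, 7.11 CPM, the level was at least 42.0-fold lower in group 2, and at least 40.6-fold lower in group 1 without replicate 7. The fitted log2 FC of all PPGLs was -4.80 (SE 0.96) and was -8.13 without group 1 replicate 7, so the value of all PPGLs rests on 1 tumor. Without that tumor every PPGL was at or under the floor, so -8.13 is a fitted value only and the counts allow no more than the bounds above.

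**Figure D1:**
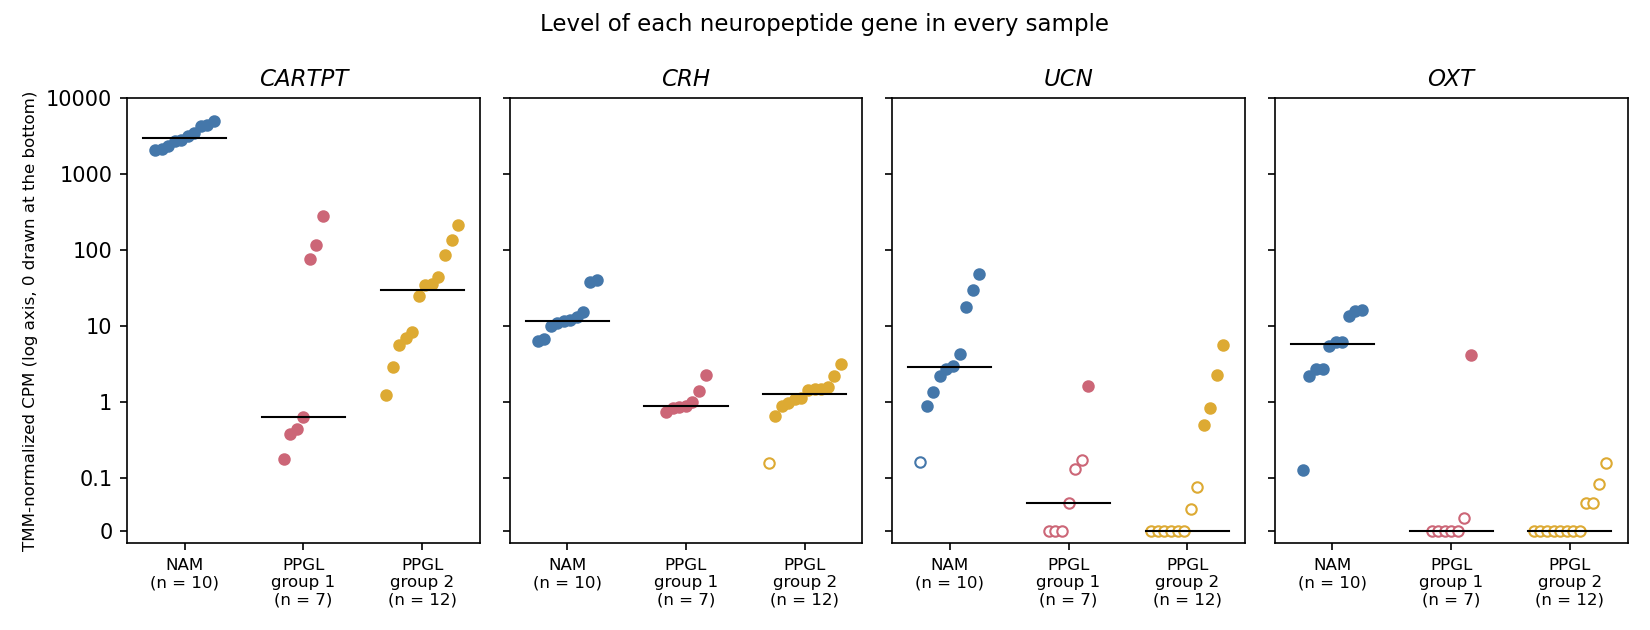
Level of CARTPT, CRH, UCN and OXT in TMM-normalized CPM on a log axis, with 1 point per sample in the 10 NAMs, 7 tumors of group 1 and 12 of group 2; open points are at or under 3 counts, values of 0 are drawn at the bottom and black lines are medians. CARTPT and CRH did not overlap between NAMs and PPGLs, whereas UCN and OXT overlapped in 6 and 2 tumors, among them group 1 replicate 7 with 4.16 CPM of OXT.

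All 4 genes passed the low-count filter between tissues and each had a log2 FC under -3. Of the 14766 genes tested, 0.792% were lower in PPGLs with a log2 FC under -3 and an FDR-adjusted p below 0.05, and this share is given for reference only, because the 4 genes were chosen for it. Levels of different genes were compared per kilobase of exon. In NAMs the mean was 6143 CPM per kb (SD 1919, n = 10) for CARTPT, rank 11 of the 30951 genes. It was 29.1 (SD 42.6) for UCN, 9.82 (SD 7.42) for CRH and 9.42 (SD 7.84) for OXT, and these 3 did not differ beyond their spread between samples. In group 2 CARTPT had a mean of 95.7 CPM per kb (SD 125, n = 12) and a lowest value of 2.39, above the highest CRH value of 1.86. In group 1 its mean was 128 (SD 198, n = 7) through replicates 2, 4 and 6, its median was 1.21, and the other 4 tumors were no higher than the highest CRH value of 1.35. In group 1 the means were 0.793 (SD 2.08) for OXT, 0.737 (SD 1.55) for UCN and 0.681 (SD 0.322) for CRH, within each other's spread. In group 2 they were 2.05 (SD 4.38) for UCN, 0.803 (SD 0.453) for CRH and 0.0373 (SD 0.0661) for OXT, and UCN and CRH again lay within their spread.

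The question open to a test was whether the tumor groups differed in these genes, since the groups were not used to choose them. Neither CARTPT nor CRH passed the threshold, an FDR-adjusted p below 0.1 in edgeR, and UCN and OXT did not pass the low-count filter among PPGLs. Without that filter UCN did not pass the threshold and OXT passed it through 1 tumor. In the fit of 19 PPGLs, which called 6.92% of 14666 genes, CARTPT had a log2 FC of group 1 against group 2 of 0.44 (SE 1.15, adjusted p = 0.872) and CRH of -0.23 (SE 0.41, adjusted p = 0.803). The direction for CARTPT depended on the scale: the mean was higher in group 1 (67.4 against 50.3 CPM), whereas the mean log2 CPM was lower (difference -1.94, two-sided exact permutation test, p = 0.217). Without the 3 tumors of group 1 the log2 FC was 1.24 for CARTPT and 0.00 for CRH, and without group 1 replicate 2 it was -0.62 for CARTPT.

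UCN and OXT did not pass the low-count filter among the 19 PPGLs. They were fitted with all 3 groups, where 16.9% of 15201 genes were called. Both entered that fit through their counts in NAMs, for which they were chosen, so its values are a description and no call is read from it. UCN had a log2 FC of -1.40 there (SE 1.28), and p = 0.670 in the exact permutation test on log2 CPM. In fits of PPGLs alone it was -1.49 (adjusted p = 0.576) for all 19 without a low-count filter and -3.07 (SE 1.92, adjusted p = 0.448) with the filter and without the 3 tumors of group 1, so the filter and the samples both differ between these values. With 3 groups in the fit OXT had a log2 FC of 4.25 (SE 1.13). Its adjusted p was 0.0916 in the 19 PPGLs without a low-count filter, and the exact permutation test gave p = 0.556. Only replicate 7 of group 1 was above the floor, so without it both groups were at or under the floor and no fold is given.

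Among the NAMs the 4 genes did not share one order of samples. Of 24 relations computed within NAMs, group 1 and group 2, among the genes and with the mean log2 CPM of the chromaffin and adrenal cortex markers, 0 had an adjusted p below 0.05 for Pearson's r or Spearman's rho. These relations were added after the data were seen. CRH and UCN were both high in NAM replicates 3 and 8 (r = 0.67, permutation p = 0.0365, adjusted p = 0.114, and rho = 0.56, p = 0.0967, adjusted p = 0.230; n = 10), and without these samples r was 0.01, so the relation rests on them. OXT ran against the chromaffin score in NAMs (r = -0.64, permutation p = 0.0381, adjusted p = 0.114, and rho = -0.59, p = 0.0814, adjusted p = 0.230; r = -0.41 without the 2 farthest). CARTPT rose with that score in NAMs (r = 0.69, permutation p = 0.0309, adjusted p = 0.114, and rho = 0.64, p = 0.0541, adjusted p = 0.216) and ran against the cortical score (r = -0.68, permutation p = 0.0345, adjusted p = 0.114, and rho = -0.72, p = 0.0234, adjusted p = 0.190). Without the 2 samples farthest from the median of the score, r was 0.78 and -0.97. In group 2, CARTPT and CRH were high in the same tumors (r = 0.64, permutation p = 0.0186, adjusted p = 0.114, and rho = 0.78, p = 0.00381, adjusted p = 0.0914; n = 12), and r was 0.70 without the 2 farthest samples. In group 1, where the 3 tumors that stood apart had the lowest chromaffin scores, CARTPT followed that score (r = 0.87, exact permutation p = 0.0274, adjusted p = 0.114, and rho = 0.86, p = 0.0238, adjusted p = 0.190; n = 7; r = 0.85 without the 2 farthest) and the cortical score (r = 0.83, exact permutation p = 0.0192, adjusted p = 0.114, and rho = 0.79, p = 0.0480, adjusted p = 0.216; r = 0.78 without the 2 farthest). In group 2 its r with the chromaffin score was -0.04 (permutation p = 0.892, adjusted p = 0.934, and rho = -0.08, p = 0.800, adjusted p = 0.914; r = -0.15 without the 2 farthest). CRH followed the cortical score in group 1 (r = 0.91, exact permutation p = 0.00456, adjusted p = 0.110, and rho = 0.82, p = 0.0341, adjusted p = 0.205), and r was 0.50 without the 2 farthest tumors. In group 2 the cortical score had r of 0.08 with CARTPT (permutation p = 0.798, adjusted p = 0.932, and rho = 0.11, p = 0.733, adjusted p = 0.880) and 0.37 with CRH (permutation p = 0.232, adjusted p = 0.446, and rho = 0.50, p = 0.105, adjusted p = 0.230), and without the 2 farthest r was 0.50 and 0.70.

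NAM replicates 3, 6 and 8 were also the highest for CRHBP, CREB3L3 and OXTR, which were singled out after the values were seen, with no tally of the other genes. CRHBP, the binding protein that holds CRH and urocortin in solution, had 30.7, 17.0 and 21.2 CPM in these samples and at most 9.21 CPM in the other NAMs. CREB3L3, a membrane-bound transcription factor of the CREB family, had 58.0, 46.0 and 162 CPM against at most 29.6 CPM in the others. OXTR, the oxytocin receptor, had 1.03, 0.970 and 0.968 CPM against at most 0.655 CPM. OXT itself was not high there, with 2.21, 6.20 and 2.70 CPM. These libraries also stood apart in cell markers. Replicates 8 and 6 had the highest cortical scores of the NAMs (10.717 and 10.46), and replicate 3 had the highest chromaffin score (9.901). The part of these cells in the levels was not tested.

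**Figure D2:**
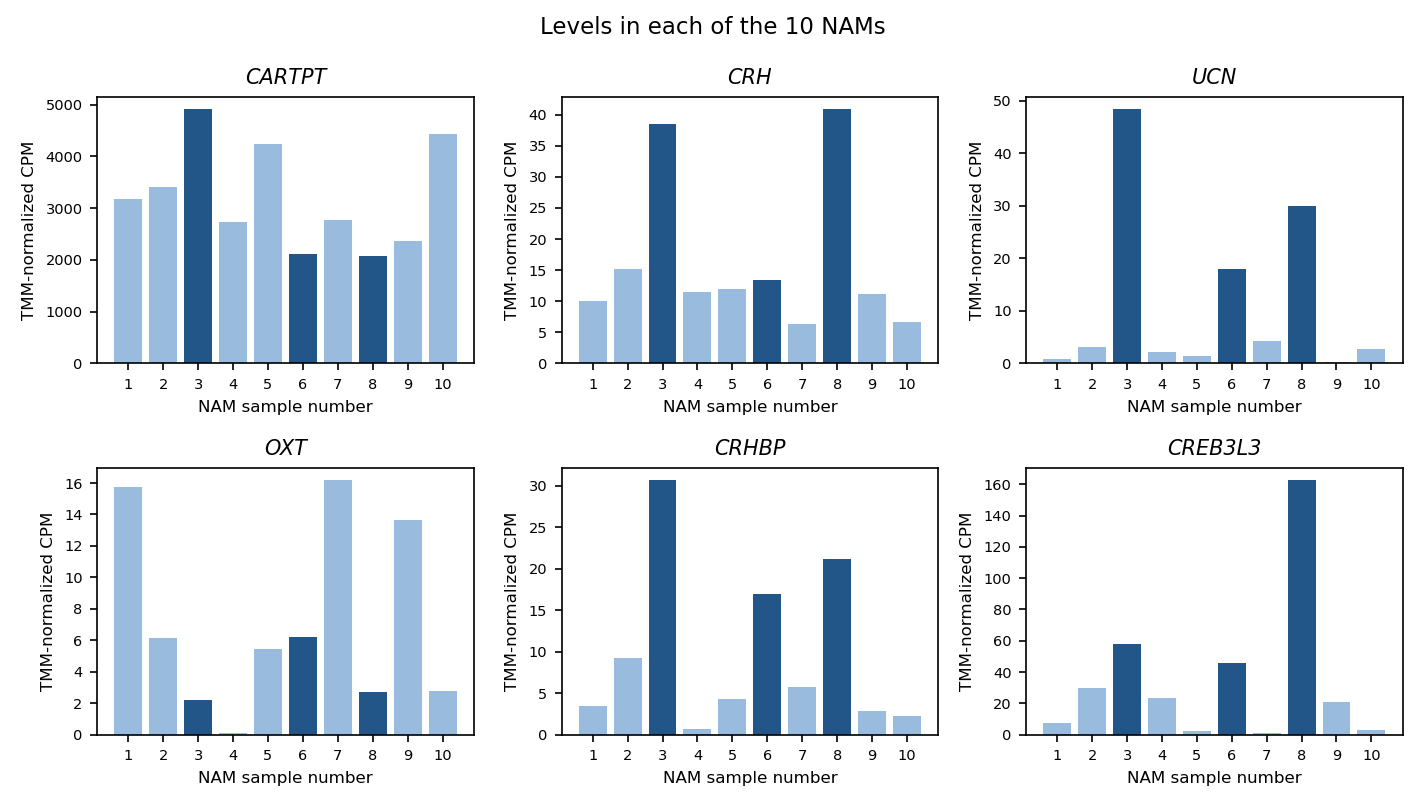
TMM-normalized CPM of CARTPT, CRH, UCN, OXT, CRHBP and CREB3L3 in each of the 10 NAMs, with 1 bar per sample and replicates 3, 6 and 8 in dark blue. UCN, CRHBP and CREB3L3 were highest in these 3 samples, while OXT was highest in replicates 7, 1 and 9.

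The receptors and binding partners differed by gene in direction. Of 26 genes found in the table, 16 passed the filter; 5 were higher and 2 lower in PPGLs than in NAMs (FDR-adjusted p below 0.05), where 22.3% of all genes tested were higher and 15.2% lower. The balance depended on the test, with 3 higher and 5 lower by the Mann-Whitney U-test and 6 and 5 with DESeq2. It was 3 and 4 with a replicate block, which joins different dogs by sample number and has no basis in the design. The median log2 FC was 0.60 in the list and 0.13 over all genes. CRHR1 was not found by name, and CRHR2 and OXTR did not pass the filter. CRHR2, a receptor for urocortins, was at or under the floor in 8 NAMs but reached 10.7 CPM in group 1 replicate 1 and 5.63 CPM in group 2 replicate 6. CRHBP ranged from 0.649 to 30.7 CPM in NAMs, from 0 to 10.6 CPM in group 1 and from 0.0962 to 53.5 CPM in group 2; 11 PPGLs lay below every NAM and 1 above, and the log2 FC was -0.64 (SE 0.95, adjusted p = 0.631). OXTR was at most 1.03 CPM in NAMs and 2.58 CPM in PPGLs.

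The vasopressin receptor AVPR1A, which also binds oxytocin, fell by 2.67 on the log2 scale (SE 0.56, adjusted p = 0.000521), from 87.2 to 285 CPM in NAMs to 0.470 to 163 CPM in PPGLs, with 18 PPGLs below every NAM. MC2R, the corticotropin receptor of the adrenal cortex, fell by 3.18 (SE 0.82, adjusted p = 0.00327). Higher in PPGLs were the orexin receptor HCRTR2 (log2 FC 4.71, SE 1.29, adjusted p = 0.00494), the melanocortin receptor MC4R (2.80, SE 0.87, adjusted p = 0.0120), GPR160, which has been put forward as a receptor for CART peptide (2.26, SE 0.41, adjusted p = 0.000121), VIPR2 (1.72, SE 0.43, adjusted p = 0.00223) and LNPEP, the aminopeptidase that degrades oxytocin (0.80, SE 0.28, adjusted p = 0.0230). MC4R was near the floor, with 4 NAMs and 5 PPGLs at or under it. Its median was 0.178 CPM in NAMs, 0.0941 CPM in group 1 and 1.26 CPM in group 2, so its higher level lay in group 2. GPR160 exceeded the highest NAM in 17 of 19 PPGLs. With the cortical marker score as a covariate 5 genes of the list were called, and AVPR1A (adjusted p = 0.0862), VIPR2 (adjusted p = 0.293) and MC2R, itself one of the cortical markers, were not among them; without the 3 tumors of group 1 the list had 9 called genes.

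Related stress and feeding peptides had calls in both directions, and the list was not tested against the 4 genes or against all genes. Of 32 precursors found, 14 passed the filter, and 4 were higher and 2 lower in PPGLs (22.3% and 15.2% of all genes tested), with a median log2 FC of -0.33. The balance turned to 3 higher and 5 lower with 3 groups in the fit and 3 and 4 by the Mann-Whitney U-test. It was 2 and 3 with the replicate block, which joins different dogs. Over all genes it was 2917 and 2994 by the Mann-Whitney U-test and 2273 and 2380 with the block. UCN2 was not found by name. UCN3 was above the floor in 1 NAM and 0 PPGLs, and AVP, the neighbor and relative of OXT, had 0 counts in all NAMs and was above the floor in 1 tumor, group 1 replicate 7 with 4 counts, the tumor that also held OXT. Galanin (GAL) was higher by a log2 FC of 5.34 (SE 1.16, adjusted p = 0.000701), with a median of 0.908 CPM in NAMs and a highest tumor level of 418 CPM in group 2 replicate 12. GRP, a bombesin-like peptide, was higher by 4.93 (SE 1.16, adjusted p = 0.00147), whereas neuropeptide B (NPB) fell by 2.18 (SE 0.57, adjusted p = 0.00330) and neuromedin B (NMB) by 1.23 (SE 0.43, adjusted p = 0.0253).

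The other calls of that list were less firm. Prodynorphin (PDYN) was called higher (log2 FC 3.11, SE 1.17, adjusted p = 0.0363) through group 1 replicate 2, which had 177 CPM, and without that tumor its log2 FC was -0.26 (adjusted p = 0.661); its call was also lost without any of 7 single NAMs (adjusted p up to 0.0599). Adrenomedullin (ADM, log2 FC 1.20, SE 0.46, adjusted p = 0.0416) lost its call when any of 13 single samples was left out, with a highest adjusted p of 0.0765. The list had 2 called genes, GAL and NMB, with the cortical score as a covariate, and 4 without the 3 tumors of group 1, where NMB was not called (log2 FC -1.11, adjusted p = 0.0553) and GRP did not pass the filter. Proenkephalin (PENK), the precursor with the highest level, ranged from 5720 to 24962 CPM in NAMs and did not pass the test (log2 FC 1.38, SE 0.92, adjusted p = 0.240).

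The machinery that cuts and stores these peptides includes convertases, an amidating enzyme and granule proteins. All 21 genes found passed the filter; 4 were higher, 2 were lower and 15 were not called, beside 22.3% higher and 15.2% lower over all genes tested, with a median log2 FC of -0.10. The log2 FC was -0.80 (SE 0.45, adjusted p = 0.163) for the prohormone convertase PCSK1, -0.10 (SE 0.81, adjusted p = 0.932) for PCSK2, -0.20 (SE 0.28, adjusted p = 0.593) for the carboxypeptidase CPE and 0.08 (SE 0.30, adjusted p = 0.863) for the amidating enzyme PAM. PCSK2 ranged from 63.2 to 292 CPM in NAMs and from 0.332 to 1475 CPM in PPGLs, with 11 PPGLs below every NAM and 1 above. Its log2 FC was -1.18 without group 1 replicate 1, so the value near 0 rests on that tumor. It was called lower with the cortical score as a covariate (log2 FC -3.78, adjusted p = 0.0158). Secretogranin SCG3 rose (log2 FC 2.01, SE 0.45, adjusted p = 0.000958), as did SYT1, QPCT and PTPRN2, by 1.03, 0.84 and 0.76. FURIN fell by 0.77 (SE 0.23, adjusted p = 0.00837). VGF, a granule protein precursor, fell by 1.60 (SE 0.54, adjusted p = 0.0197), but without NAM replicate 3, the sample with 960 CPM, the adjusted p was 0.129. With the cortical score as a covariate 3 genes were called, of which SCG3 was the only one called before, and without the 3 tumors of group 1 there were 8.

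The list of cAMP and CREB factors, silencers, nuclear receptors and other regulators had calls in both directions. The signal cAMP is known to drive CRH and CARTPT transcription in other cells, but not every gene of the list answers to it. Of 28 genes found, 26 passed the filter, and 5 were higher and 8 lower in PPGLs (22.3% and 15.2% of all genes tested), with a median log2 FC of 0.07. CREB3L3 fell by 6.37 (SE 0.77, adjusted p = 7.23e-07), from 1.07 to 162 CPM in NAMs to 0 to 3.20 CPM in PPGLs, with 18 PPGLs below every NAM. PRKAR2B, a regulatory subunit of protein kinase A, fell by 1.48 (SE 0.27, adjusted p = 0.000115). The nuclear receptors NR4A1, NR4A2 and NR4A3, which are induced early after stimulation, fell by 1.87, 1.73 and 2.24 (adjusted p = 0.0153, 0.0329 and 0.0171). Calls of NR4A2 and NR4A3 were lost without NAM replicate 6 (adjusted p = 0.125 and 0.0859) or 8 (0.133 and 0.0539), and that of NR4A2 without the 3 tumors of group 1 (0.0517).

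FOS, another gene of the early response, went the other way, with a log2 FC of 3.57 (SE 0.76, adjusted p = 0.000571). The phosphodiesterases PDE4B and PDE4D, which break down cAMP, rose by 1.66 and 1.11 (adjusted p = 0.0125 and 0.000235), the mineralocorticoid receptor NR3C2 by 0.90 (adjusted p = 0.0105) and the CREB coactivator CRTC2 by 0.58 (adjusted p = 0.000989). CREB1 itself had a log2 FC of 0.37 (SE 0.17, adjusted p = 0.0890), the neuronal gene silencer REST of -0.55 (SE 0.26, adjusted p = 0.0935) and the glucocorticoid receptor NR3C1 of 0.07 (SE 0.32, adjusted p = 0.885). For REST the adjusted p was 0.0373 without NAM replicate 3. With the cortical score as a covariate 4 genes of the list were called, among them CREB3L3 (log2 FC -6.39, adjusted p = 0.00224), FOS and PDE4D, and without the 3 tumors of group 1 there were 12. SIM1, a factor of oxytocin and CRH neurons in the hypothalamus, had 0 CPM in all samples.

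**Figure D3:**
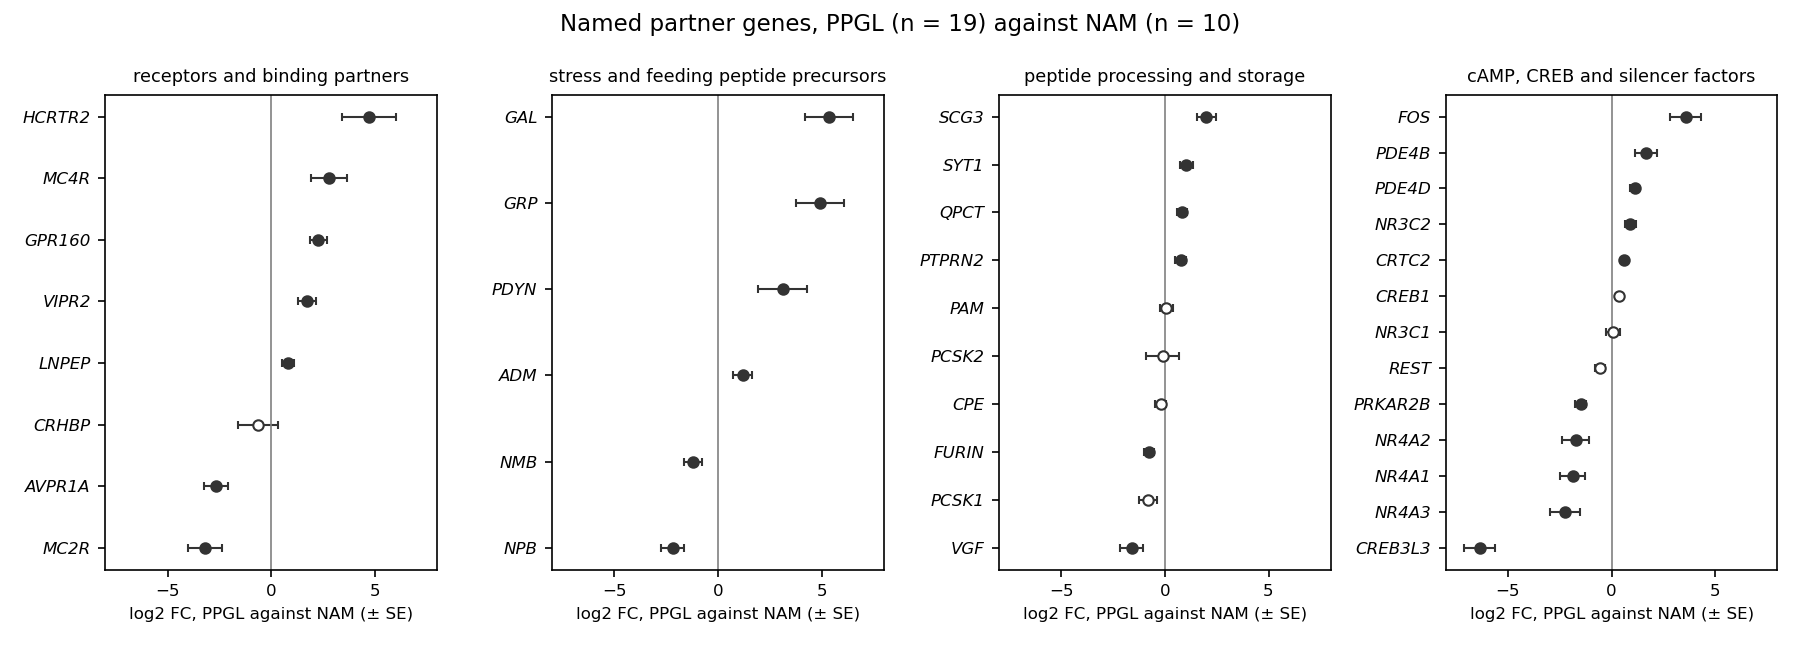
log2 FC of PPGLs (n = 19) against NAMs (n = 10) with its SE for the named genes of the 4 lists; filled points passed an FDR-adjusted p below 0.05 and open points did not. CREB3L3 at -6.37 and GAL at 5.34 lie at the ends, and the processing enzymes CPE and PAM lie near 0.

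Between the tumor groups the genes of the 4 lists were tested at an FDR-adjusted p below 0.1 in the 19 PPGLs. Of all 14666 genes tested, 6.92% were called, with 582 higher and 433 lower in group 1. Lower in group 1 were 4 of 16 receptors and binding partners (MC2R, MC4R, NPY1R and NPY5R) and 2 of 21 processing genes (CPE and VGF). So was 1 of 25 cAMP, CREB and silencer factors (ATF3), and higher was 1 of 12 precursors (PDYN). CPE ranged from 136 to 223 CPM in group 1 and from 110 to 671 CPM in group 2 (log2 FC -1.18, SE 0.32, adjusted p = 0.0453). MC4R had a log2 FC of -3.71 (SE 0.93, adjusted p = 0.0356), and NPY5R, with 0 counts in every tumor of group 1, was at least 11.2-fold lower there, but it fell below the low-count filter without any of 7 tumors of group 2. CRHBP and AVPR1A were not called with all tumors and became lower in group 1 without 1 tumor, CRHBP without replicate 6 (log2 FC -5.86, adjusted p = 0.0470) and AVPR1A without replicate 5 (-2.91, adjusted p = 0.0559). Other genes of these lists also gained a call when a single tumor was left out (adjusted p 0.0553 to 0.0987). LNPEP, GAL, SCG2, NR4A1 and NR4A2 were then lower in group 1, and PCSK2, PCSK5, PCSK6, GRP and ADCYAP1R1 higher. PDYN rested on group 1 replicate 2 (adjusted p = 0.664 without it), and VGF (adjusted p = 0.0874) lost its call when any of 12 tumors was left out. Without the 3 tumors of group 1, MC2R (adjusted p = 0.0609) and PDYN (adjusted p = 0.0123) were still called and the others were not, although log2 FC stayed near the values with all tumors for MC4R (-3.50), NPY1R (-4.60 against -4.99), ATF3 (-2.36 against -2.51), VGF (-1.97 against -2.02) and CPE (-1.03). There PCSK2 (log2 FC 3.53, adjusted p = 0.0975) and NR3C1 (1.40, adjusted p = 0.0331) were called. In the fit with the cortical score, 0 of 14666 genes were called by edgeR and 1510 had an unadjusted p below 0.05.

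The genes whose levels over all 29 samples ran most like those of the 4 genes were named by Spearman's rho, a measure that pools tissues which differ. For CARTPT they were KRT23, GRAMD1B, ERBB4 (rho 0.85 each), PSCA and CMTR2 (0.84 each), and within the 10 NAMs the same genes had rho between -0.37 and 0.56. For CRH they were NEFL (0.89), RASAL1, ERBB4, CMTR2 (0.87 each) and PRKD1 (0.86), with 0.09 to 0.55 within NAMs. For UCN, UBE2QL1 led with 0.87, and it had rho of 0.79 within the 10 NAMs and 0.81 within the 19 PPGLs, followed by EIF4G1, URB1, ICE1 and NSUN2 (0.82 each). For OXT they were FBXO21 (0.87), ACSL3 (0.86), UTRN and SYT12 (0.85 each), with 0.24 to 0.76 within NAMs. In PPGLs, UCN was at or under the floor in 14 tumors and OXT in 18. Among tumors the rho of these genes thus mostly orders values at the floor, and nothing is read from it. ERBB4 and CMTR2 thus appeared for both CARTPT and CRH, and CMTR2 had a log2 FC of -0.90 (SE 0.12).

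Of the markers of other cells, those of the adrenal cortex moved with the tissues and with the tumor groups. Summed levels of 11 adrenal cortex markers were 14100 to 69040 CPM in NAMs (median 37350). They were 92.0 to 1169 CPM in group 1 (median 275) and 255 to 34410 CPM in group 2 (median 3686). Of the 11 markers, 10 were lower in PPGLs, beside 15.2% of all genes tested. Between the groups 10 were lower in group 1, where 6.92% of all genes tested were called in either direction. The most abundant, CYP17A1, had a mean of 11980 CPM in NAMs and 2428 CPM in group 2, and CYP11B1 and CYP11B2 were not found by name. Group 2 replicate 10, with 34410 CPM of cortical markers, lay inside the range of NAMs and had 5.68 CPM of CARTPT, 1.14 CPM of CRH, 0.505 CPM of UCN and 0.0842 CPM of OXT. The part of cortical tissue in these results was not tested. In bulk samples, fewer cells of a type and less RNA per cell cannot be told apart.

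Chromaffin markers differed in direction. Their summed level was 16790 to 94190 CPM in NAMs, 9213 to 119900 CPM in group 1 and 20070 to 102500 CPM in group 2, with CHGB the most abundant in each. Over all genes tested, 22.3% were higher and 15.2% lower in PPGLs, given for reference to the marker lists. Of 13 chromaffin markers found, 4 were higher in PPGLs (PHOX2A, HAND2, SYP and CYB561), 1 was lower (PNMT, log2 FC -1.94, SE 0.64, adjusted p = 0.0177) and 8 were not called. Of these, SLC18A1 (log2 FC -1.03, SE 0.44, adjusted p = 0.0636) was called lower without group 1 replicate 2 (adjusted p = 0.0349) or 3 (0.0448), without group 2 replicate 11 (0.0370), or without the 3 tumors (0.0320). SLC18A2 went the other way (log2 FC 2.53, adjusted p = 0.0626) and was called higher without any of 6 single samples (adjusted p 0.0420 to 0.0475) or without the 3 tumors (0.0282). Of 11 liver-type genes 6 passed the filter, 4 were lower and 2 higher in PPGLs; the sum was 178 to 1150 CPM in NAMs, 19.1 to 68.0 CPM in group 1 and 46.1 to 749 CPM in group 2, APOB led in NAMs, and FGA, TTR and CYP2E1 were at or under the floor in all samples. Of 8 endothelial markers 4 were lower, with medians of the sum of 699, 432 and 428 CPM in NAMs, group 1 and group 2 and with VWF leading in NAMs. Of 8 tested Schwann and sustentacular cell markers 0 were called by edgeR, with medians of 120, 56.2 and 42.2 CPM. Of 6 tested neuronal markers 3 were higher and 2 (NEFL and NEFM) lower, with medians of 447, 242 and 109 CPM.

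Beside the shares of all genes tested, 22.3% higher and 15.2% lower, fibroblast markers were higher for 5 of 8 genes. Their medians were 449, 566 and 992 CPM, with 25710 CPM in the highest tumor of group 2, replicate 11. Without that tumor LUM lost its call (adjusted p = 0.145) and PDGFRA was called lower (adjusted p = 0.00510). Leukocyte markers were higher for 2 and lower for 1 of 8, with medians of 655, 445 and 476 CPM. These counts lay near the shares of all genes tested, so no shift of leukocytes is read from them. CD8A lost its higher call without any of 13 single samples (adjusted p up to 0.0660), and CSF1R its lower call without NAM replicate 2 (0.0567). Erythroid markers were higher for 3 of 3 tested, with sums of at most 0.839 CPM in NAMs and 65.8 CPM in PPGLs. Of the kidney-type markers, SLC22A6 was lower in PPGLs, and UMOD and SLC34A1 were at or under the floor in all samples. The part of these cells in the levels of CARTPT, CRH, UCN and OXT was not tested.

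In CanFam3.1 coordinates, CARTPT lies on chromosome 2 from 54865298 to 54867158 on the plus strand with 3 exons (525 bp counted), and CRH on chromosome 29 from 15831944 to 15834384 on the minus strand with 2 exons (1687 bp). UCN is annotated on chromosome 17 from 21278932 to 21279312 on the minus strand as 1 interval of 381 bp, and OXT on chromosome 24 from 18193339 to 18194170 on the minus strand with 2 exon intervals (755 bp). None overlaps another gene of the table. The nearest genes were compared to see whether a low level reached beyond the 4 genes. MCCC2, a mitochondrial enzyme gene 42024 bp from CARTPT on the same strand, had 180 to 359 CPM in NAMs, whereas the tumors had 48.3 to 121 CPM, with all 19 PPGLs below every NAM (log2 FC -1.90, SE 0.12, adjusted p = 1.08e-11). The unnamed gene on the other side of CARTPT, 63725 bp away, was not called (log2 FC -1.11, SE 0.57, adjusted p = 0.130), with 12 PPGLs below every NAM.

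The genes next to CRH and UCN are the paralogs TRIM55 and TRIM54, each on the opposite strand, 1541 and 657 bp away. TRIM55 ranged from 8.52 to 18.7 CPM in NAMs and from 0 to 29.7 CPM in PPGLs (log2 FC -0.88, SE 0.82, adjusted p = 0.420). For this gene 14 PPGLs lay below every NAM and 4 above. TRIM54 was at most 0.762 CPM in NAMs but reached 15.0 CPM (447 counts) in group 1 replicate 7, the tumor with 48 counts of UCN. Whether reads of TRIM54 entered the UCN count there was not tested; group 2 replicate 12, with 100 counts of UCN, had 0 of TRIM54. MPV17, on the other side of UCN, fell by 0.72 (SE 0.19, adjusted p = 0.00383), and MRPS26, next to OXT, had a log2 FC of -0.21 (SE 0.10, adjusted p = 0.103).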

How the data were processed

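RNA was measured in 10 NAMs and 19 PPGLs. The authors aligned single-end reads of 50 bp from stranded mRNA libraries to CanFam3.1 with STAR and deposited raw counts per gene over exons; the submitters' processing notes also name FastQC, Picard and HTSeq, and the strand setting is not given in the sources used here. Genes were found by the names in the table, where 12712 of 30951 genes have no name. Counts were filtered with filterByExpr (minimum count 10, minimum total 15), TMM-normalized and tested with edgeR 4.0.16 quasi-likelihood F tests with Benjamini-Hochberg correction over all genes tested: PPGL against NAM in 29 samples (adjusted p below 0.05) and group 1 against group 2 in 19 PPGLs (below 0.1). Correlations used log2 CPM (prior count 2) and two-sided permutations, 100000 or all pairings of 7 samples. DESeq2 1.42.0 and R 4.3.3 were used, with Python 3.11.15 and matplotlib 3.10.9 for plots. The steps were tested on simulated data.

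The genes named are CARTPT, CRH, UCN and OXT, their direct receptors, binding proteins, processing enzymes and regulators, up to 5 called genes per direction and list with the largest log2 FC, the 5 genes with the highest rho per gene, and leading and undetected genes of marker lists; neighboring genes, calls between the tumor groups and NAM replicates 3, 6 and 8 were singled out after values were seen. The members and lists were chosen with earlier results of these data known. No 2 libraries of a group agreed within sampling noise, and P-values measure the spread between dogs. Alternatives were other scalings, tests, filters, covariates and samples left out; those without the 3 tumors of group 1, and the correlations, were added after seeing the data. Protein and promoter sequences were not used here. Some genes of the marker lists and of the genes with the highest rho are not reported here.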

Additional observations from a re-analysis of the deposited data

Results flagged for a closer look

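Of 102 groups of 7 or 10 samples tested, 15 held a sample far from the others on the log2 CPM scale, while chance flags about 1 in 20. Causes were not tested.

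OXT was far below the other NAMs in replicate 4 (-2.23, nearest 1.20). In group 1, replicate 7 was far above the others for OXT (2.09, nearest -3.14) and UCN (0.76, nearest -1.95). The same tumor was low for PCSK2 (-1.25), ADM (1.50), PTPRN2 (6.70), VGF (2.43) and NR3C2 (1.28), and high for CREB1 (4.93), so 8 of the 15 values came from 1 tumor.

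Replicate 6 of group 1 was high for CRHBP (3.42, nearest -0.92) and MC2R (-0.72, nearest -2.54). Replicate 2 of group 1 was high for PDYN (7.47, nearest 1.64) and low for PRKAR2B (3.93, nearest 5.67). Among NAMs, replicate 3 was high for PAM (10.54, nearest 10.14) and for HCRTR2 (0.79, nearest -1.48).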

How the results depend on the processing

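Of 87 alternatives for tests and counts other than leaving out 1 tumor, 71 kept the direction and the side of the threshold, or a count within 1.5 times, as did 54 of 57 fits without 1 tumor and 23 of 27 descriptions. CARTPT, CRH and UCN were not called between the groups under any alternative run. The direction of CARTPT turned on the mean of log2 CPM (-1.94), and without single tumors its log2 FC was -0.62 to 0.96. With the cortical score it moved from 0.44 to 2.69 (adjusted p = 0.689). CRH turned with the cortical score (0.75), and had no direction without the 3 tumors of group 1 (0.00); without single tumors it was -0.49 to -0.05. UCN had a log2 FC of -1.40 with 3 groups in the fit; among PPGLs alone it was -1.49 with no filter and -3.07 with the filter and without the 3 tumors, so more than the samples differed. OXT was not called in the exact permutation test (difference 0.55), and no call is read from the fit with 3 groups, which it entered through its counts in NAMs. Its fit without the 3 tumors left it below the filter. The causes were not tested.

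Genes called between the groups numbered 1015; they were 1793 with DESeq2, 392 with the Mann-Whitney U-test, 0 with the cortical score, 2567 with 3 groups in the fit, where the spread comes from more samples, 328 without the 3 tumors, and 525 to 1218 without single tumors (525 without group 1 replicate 7, 674 without group 2 replicate 4). Between PPGLs and NAMs 5541 genes were called, and 2163 with the cortical score. With that score 2 precursors, 3 processing genes and 4 cAMP, CREB and silencer factors were called, not all of them called before. DESeq2 called 11 receptors and binding partners. As a description, OXT's log2 FC moved to -10.38 with the cortical score. Without its highest tumor the fitted value was -8.13 and without the 3 tumors -8.11. All remaining tumors were then at or under the floor, so only the bounds of at least 42.0-fold (group 2) and 40.6-fold (group 1) hold. For CARTPT the log2 FC was -7.24 with a replicate block and -6.90 as a ratio of medians. For UCN it was -5.49 with a replicate block, -5.09 without its highest tumor, -6.21 as a ratio of medians and -3.18 with the cortical score. Library size as the only scaling moved the median log2 FC of all genes from 0.13 to 0.20.

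The sample numbers count different dogs, and same-numbered samples did not deviate together (median r 0.01, 0.01 and -0.04 for the 3 pairs of groups). With the number as a replicate block, 47 genes were called between the groups and 4653 between the tissues, CARTPT had a log2 FC of -3.45 between the groups, and OXT of -7.45 against NAMs. Not every sample correlated best with its own number: 2 of 10 did between NAMs and group 2, and 0 of 7 in the other pairs. Depth limits OXT and UCN, which were at or under 3 counts in 18 and 14 PPGLs. UCN was left below the filter of the 19 PPGLs in most alternatives, and OXT in all but that with no filter, which have no value for them.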

Other observations

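Group 1 replicate 7 was the only tumor above the floor for OXT (124 counts) and for AVP (4 counts), and had the highest TRIM54 level of all samples (15.0 CPM). Over the samples of each group, Spearman's rho of UCN with TRIM54 was 0.52 in NAMs, 0.33 in group 1 and -0.20 in group 2, and that of CRH with TRIM55 was 0.26, -0.18 and 0.29.

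The convertase PCSK5 was not called between PPGLs and NAMs with all samples (log2 FC -0.96). Without group 1 replicate 7 it was called lower (adjusted p = 8.22e-05), as it was without the 3 tumors of group 1 (log2 FC -1.65, adjusted p = 9.34e-05). The cholecystokinin receptor CCKAR was called without group 1 replicate 2 (adjusted p = 0.000103). Both were singled out after the values were seen.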
